A study of Homo sapiens with 18 samples.

Results

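The genes described here are 42 genes of mitosis and the spindle checkpoint, out of 19722 genes that could be named on the array. They were chosen for their roles in cell division, with earlier results of these data known. Among these was that the lines differ in their cell cycle response to 5-FU. Of these, 41 were measured, by 47 probes, and all 47 probes passed the filter on dim probes and were well above background on every array. UBE2C was not analysed here. EpCAM+ cells had been sorted from the human hepatocellular carcinoma (HCC) lines Huh1 and Huh7, and RNA was hybridized to 18 one-color Agilent arrays in 6 groups of 3. The groups were Huh1 control, Huh1 with 5-FU (5-fluorouracil, an antimetabolite that blocks thymidylate synthesis, 1 µM), Huh1 with DSF (disulfiram, an inhibitor of aldehyde dehydrogenase, 0.1 µM) and the same 3 in Huh7. Drugs were given for 48 hours, and the paper does not state whether the cells of the arrays were sorted before or after treatment. The methods list copper chloride with DSF and do not state what control cells received, so DSF and copper cannot be told apart. Each group is cells of a single established line, so the results describe these lines. Values are log2 spot intensities minus the log2 75th percentile of the array, called normalized log2 levels below, and for a gene with several probes the brightest was used. A change is the treated mean minus the control mean on this scale, and it was called when limma gave an adjusted p under 0.05 over all 29894 tested probes.

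A cell enters mitosis when cyclin B bound to CDK1 is switched on, helped by the kinases PLK1 and Aurora A. Chromosomes then attach through kinetochores to spindle microtubules, and the spindle checkpoint holds back the anaphase-promoting complex (APC/C) until all of them are attached. APC/C with CDC20 then destroys securin and cyclin B, sister chromatids part, and the cell divides. Most genes of this program are transcribed late in the cell cycle, in G2 and mitosis, and repressed in cells that have stopped dividing. Many are driven by the B-MYB, MuvB and FOXM1 complexes, which act through a cell cycle homology region (CHR) and CCAAT boxes in the promoter. Huh1 and Huh7 are proliferating tumor lines, and 5-FU acts mainly on cells in S phase.

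All 5 progenitor and gate markers (EPCAM, KRT19, CD24, PROM1 and AFP) and all 10 hepatocyte markers were well above background on every array of each group. Per array, 59.9% to 71.1% of the probes were well above background. Several arrays of a group lay close together. Over 685 probes that were spotted at least 5 times, Huh1 5-FU arrays 2 and 3 differed by a robust SD of 0.0288 (log2), against 0.029 given by the noise between spots on the same array, while array 1 of that group differed from them by 0.221 and 0.228. With arrays 2 and 3 of Huh1 5-FU counted as 1 sample, 35 genes were called lower after 5-FU in Huh1, as with 3 arrays. The 3 Huh7 control arrays differed by 0.0381 to 0.0432, which is 1.23 to 1.41 times the noise between spots. The p-values therefore measure the spread between these arrays, which may be technical. The paper's methods report triplicates that came from 3 independent experiments, and the values alone cannot settle this. Where arrays closer than 2 times that noise were averaged before the fit, an alternative chosen after seeing the data that leaves 12 samples and 1 Huh7 control, the counts are given beside the results.

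Promoters of the genes were read from RefSeq (GRCh38.p14), which held 35 of the 42. In a window from 250 bases before the transcription start to 50 after it, on either strand, the CHR letters (TTTGAA or TTCGAA) were found in 27 of 35 promoters, or 77.1%, against 16.6% of all 27305 promoters of the table. CCAAT was found in 28 of 35, or 80.0%, against 35.7% of all. Both motifs stood in 23 promoters, or 65.7%, against 6.58% of all. The E2F letters searched (TTTCCCGC, TTTGGCGC or TTTCGCGC) were in 3 of the 35 promoters, or 8.57%, against 2.79% of all and 15 of 30 in a list of DNA replication and G1/S genes. In that list the CHR letters were in 3 of 30 promoters. The 4 stretches of 100 bases that end at the base before the start are shown, since PLK1, CCNB2 and HMMR were among the genes that fell most after 5-FU in Huh1 and CDC20 is the activator of APC/C. Capitals mark CHR and CCAAT letters on either strand, and all 4 genes lie on the plus strand.
PLK1 (chr16:23678789-23678888): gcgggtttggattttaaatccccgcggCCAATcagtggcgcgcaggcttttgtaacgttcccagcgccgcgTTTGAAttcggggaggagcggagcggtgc
CCNB2 (chr15:59105046-59105145): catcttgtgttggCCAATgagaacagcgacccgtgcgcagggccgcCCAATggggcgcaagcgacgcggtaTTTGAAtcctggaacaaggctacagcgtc
HMMR (chr5:163460532-163460631): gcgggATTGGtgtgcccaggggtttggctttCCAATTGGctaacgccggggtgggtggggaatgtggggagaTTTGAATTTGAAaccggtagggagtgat
CDC20 (chr1:43358881-43358980): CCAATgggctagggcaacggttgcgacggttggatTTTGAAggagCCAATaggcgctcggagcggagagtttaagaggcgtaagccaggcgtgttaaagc
In PLK1 and in CCNB2 the CHR letters began 29 bases before the start, and in HMMR they stood in tandem, from 28 and 22 bases before it. In CDC20 they began 65 bases before the start, between a pair of CCAAT boxes. The letters were not in the window of KIF20A, CCNB1 or CENPE. A match of letters is a description of the sequence and does not show that a factor was bound in these cells.

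After 5-FU the mitotic genes fell as a group in Huh1 and moved in both directions in Huh7. In Huh1, 35 of 41 genes were called lower (85.4%, against 26.0% of all tested probes), and 0 were called higher (against 22.2%), and by limma 0 genes had a change above 0 at an unadjusted p under 0.05 either. In Huh7, 22 of 41 were called lower (53.7%, against 29.7%) and 6 higher (14.6%, against 27.3%). The median change was -0.59 in Huh1, with a range from -1.90 to 0.30, and -0.19 in Huh7, with a range from -1.01 to 0.64, while the medians over all tested probes were -0.03 and -0.05. In Huh1, all 5-FU arrays lay below all control arrays for 36 genes (87.8%, against 30.8% of all tested probes), and in Huh7 for 24 (58.5%, against 34.9%).

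The fall was smaller in Huh7 than in Huh1. The difference of the 5-FU changes, Huh7 minus Huh1, was called higher for 26 of 41 genes (63.4%, against 18.8% of all tested probes) and lower for 0 (against 17.8%), also at limma's unadjusted p under 0.05, with a median of 0.43 against -0.02 over all tested probes. The genes were chosen with a difference of this kind already known, so these counts describe it and do not test it independently. Of the genes, 22 fell in both lines, and the difference between the lines was called for 12 of these. A further 4 genes (CDCA3, NDC80, KIF4A and KIF23) fell in Huh1 and rose in Huh7, and the difference was called for all 4. In 9 genes the fall was called in Huh1 alone, and 8 of them, ANLN excepted, differed between the lines by the test. FOXM1 and AURKB rose in Huh7 alone, both with a called difference. CDC25C, TTK, KIF2C and ECT2 were called in neither line. These joint patterns were counted over the 41 genes only, so no share of all tested probes stands beside them. All control and 5-FU arrays of a line lay on the same slide, so the slide does not enter these changes.

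These changes were measured against the 75th percentile of the array. That percentile lay below the mean of 6 spike-in probes on every array. On 5-FU arrays it lay closer to that mean than on the line's control arrays, by 0.83 (log2) for Huh1 and by 0.99 for Huh7. When the spike-ins set the scale, 7 of the mitotic genes were called lower and 16 higher in Huh1, with a median of 0.23 against 0.79 over all tested probes, and 0 lower and 34 higher in Huh7, with a median of 0.79 against 0.94. Of all 29894 tested probes, 367 were then called lower and 22339 higher in Huh1, and 1035 lower and 22962 higher in Huh7. Most probes were thus called higher on that scale, as most of the mitotic genes were in Huh7. The 7 genes lower in Huh1 on that scale were CCNB1, CCNB2, PLK1, PTTG1, CENPE, HMMR and KIF20A. The difference between the lines was then called higher for 20 genes and lower for 0, against 4622 and 2264 of the 29894 tested probes. With close arrays averaged, 31 of the 35 falls in Huh1 stayed called, and those of CDK1, BUB1B, MAD2L1 and ANLN did not. In Huh7, 12 falls stayed called (CCNB2, CKS2, PLK1, AURKA, BIRC5, BUB1, PTTG1, CENPA, NUF2, SPC25, HMMR and KIF20A) and 3 rises (FOXM1, NDC80 and KIF4A). The difference between the lines stayed called for 11 of 26 genes, PLK1, CCNB1, CCNB2, FOXM1, CDCA3, CENPE, NDC80, KIF4A, DLGAP5, KIF20A and KIF23, and the call was lost for the other 15. In bulk samples, fewer cells in G2 and mitosis and less RNA per cell cannot be told apart. The summed level of 6 fibroblast markers moved with 5-FU in Huh7, from between -0.98 and -0.89 on control arrays to between 1.60 and 1.68 on 5-FU arrays, and the number of them well above background on all arrays of the group went from 2 to 4. COL1A2 and COL3A1 were not among those 4, and LUM was the marker with the highest level in both groups. The summed level of the 5 leukocyte markers measured went from between 0.94 and 0.96 to between 1.52 and 2.16 in Huh7, with 4 well above background on all arrays in both groups. Of these CD68, a macrophage marker, had a mean of 0.06 in controls and 1.65 after 5-FU, and PTPRC (CD45), which defines leukocytes, had means of -4.77 and -4.83. The sum of 4 endothelial markers went from between -1.98 and -1.85 to between -1.24 and -1.02 in Huh7, with KDR well above background on 0 arrays of both groups. In Huh1 the ranges of all 3 sums overlapped between control and 5-FU arrays. The part of these markers in the result was not tested.

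**Figure D1:**
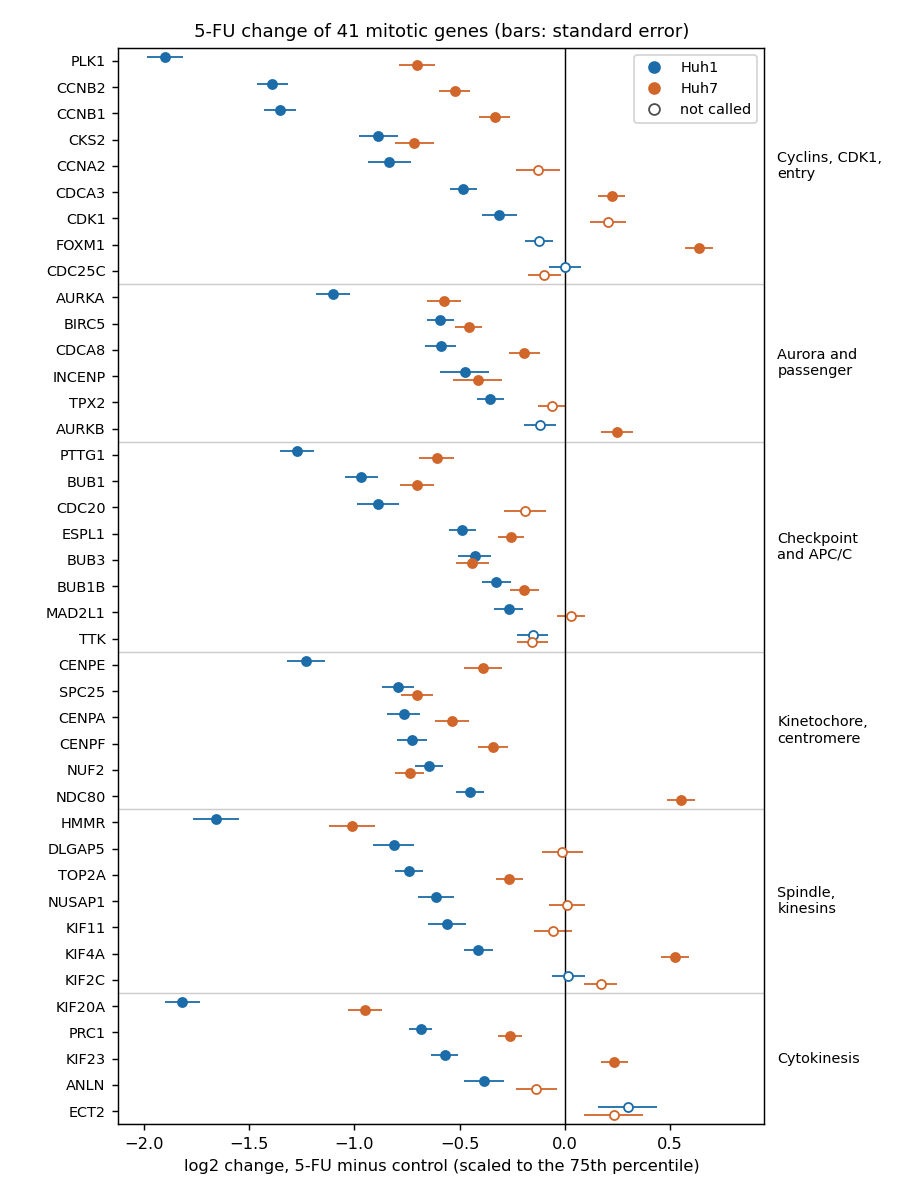
Change in normalized log2 level after 5-FU (x axis, 5-FU minus control) for the 41 measured genes, grouped by role, in Huh1 (blue) and Huh7 (orange); bars are standard errors from limma with 3 arrays per group, and open points were not called. In Huh1, 35 genes were called lower, and the points of Huh7 lie to the right of those of Huh1 for 36 of the 41 genes.

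By role, between 77.8% and 100.0% of the genes were called lower after 5-FU in Huh1, against 26.0% of all tested probes. In Huh7 the shares of the roles lay between 28.6% and 83.3% for lower, against 29.7%, and between 0.0% and 22.2% for higher, all under the 27.3% of all tested probes. Among the genes of mitotic entry, 7 of 9 fell after 5-FU in Huh1, and in Huh7 4 fell and 2 rose. PLK1, the kinase that drives entry into mitosis, stood at 0.40, 0.62 and 0.56 on the Huh1 control arrays and at -1.56, -1.27 and -1.30 on the 5-FU arrays. The Huh7 arrays gave 0.79, 0.69 and 0.70 in controls and 0.03, 0.09 and -0.06 after 5-FU. All 5-FU arrays lay below all controls in both lines, with changes of -1.90 ± 0.09 (SE, n = 3 and 3; limma adjusted p = 4.84e-09), a 3.74-fold fall, in Huh1 and -0.70 ± 0.09 (limma adjusted p = 7.3e-06) in Huh7. The difference between the lines of 1.20 ± 0.12 (limma adjusted p = 5.48e-06) was the largest of the 41 genes. The second probe of PLK1 gave -1.89 and -0.93.

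The B cyclins, the partners that activate CDK1, followed the same order. CCNB1 was at 3.93, 4.04 and 4.01 in Huh1 controls and 2.49, 2.71 and 2.72 after 5-FU. Huh7 controls had 4.16, 4.13 and 4.19, and Huh7 cells had 3.87, 3.85 and 3.76 after 5-FU. Its groups did not overlap in either line, and the change was -1.35 ± 0.07 in Huh1 and -0.33 ± 0.07 in Huh7, a difference of 1.02 ± 0.11 (limma adjusted p = 6.47e-06). The change in Huh7 was not called with close arrays averaged (limma adjusted p = 0.0978), nor on the second probe, where it was -0.19 (limma adjusted p = 0.107). CCNB2 was at 4.30, 4.13 and 4.11 in Huh1 controls against 2.86, 2.77 and 2.74 after 5-FU, and at 4.69, 4.63 and 4.71 in Huh7 controls against 4.04, 4.28 and 4.14. It fell in both lines, by 1.39 in Huh1 and by 0.52 in Huh7 on the log2 scale, with a difference of 0.87 ± 0.10 (limma adjusted p = 2.47e-05).

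CCNA2, the cyclin of S phase and G2, was at 1.52, 1.66 and 1.61 in Huh1 controls and 0.94, 0.67 and 0.68 after 5-FU. Its levels in Huh7 were 2.17, 2.19 and 2.23 in controls and 2.22, 2.02 and 1.96 after 5-FU, so that the groups overlapped there. The change was -0.83 ± 0.10 in Huh1 and -0.13 ± 0.10 (limma adjusted p = 0.311) in Huh7, and the difference of 0.71 was called (limma adjusted p = 0.00183) but not with close arrays averaged, when it was 0.64 (limma adjusted p = 0.129). CDK1 itself fell in Huh1 by 0.31 on the log2 scale and had a change of 0.21 in Huh7 that was not called (limma adjusted p = 0.0515).

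FOXM1, a transcription factor of G2 and mitotic genes, rose in Huh7. It was at 2.86, 2.81 and 2.86 in Huh7 controls and 3.49, 3.52 and 3.43 after 5-FU. In Huh1 it was at 2.62, 2.57 and 2.51 in controls and 2.53, 2.41 and 2.40 after 5-FU, with overlap between the groups. The change was 0.64 ± 0.07 (limma adjusted p = 1.25e-06) in Huh7 and -0.12 ± 0.07 (limma adjusted p = 0.142) in Huh1. CDCA3, a factor that helps to degrade the mitosis inhibitor WEE1, was at 2.84, 2.89 and 2.83 in Huh1 controls against 2.38, 2.37 and 2.37 after 5-FU, and at 3.08, 3.00 and 3.07 in Huh7 controls against 3.42, 3.26 and 3.14. Its 5-FU arrays thus lay below all controls in Huh1 and above all controls in Huh7, with changes of -0.48 ± 0.06 and 0.22 ± 0.06, the rise not being called with close arrays averaged (limma adjusted p = 0.216). CKS2, a small subunit of cyclin-dependent kinases, was among the 4 genes that fell most in Huh7. It was at 5.54, 5.48 and 5.56 in Huh7 controls against 4.81, 4.95 and 4.67 after 5-FU, and at 5.12, 5.41 and 5.36 in Huh1 controls against 4.25, 4.51 and 4.47. The changes were -0.72 ± 0.09 in Huh7 and -0.89 ± 0.09 in Huh1, and their difference of 0.17 ± 0.13 was not called (limma adjusted p = 0.343). CDC25C, the phosphatase that activates CDK1, had changes of 0.002 and -0.10 that were not called.

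**Figure D2:**
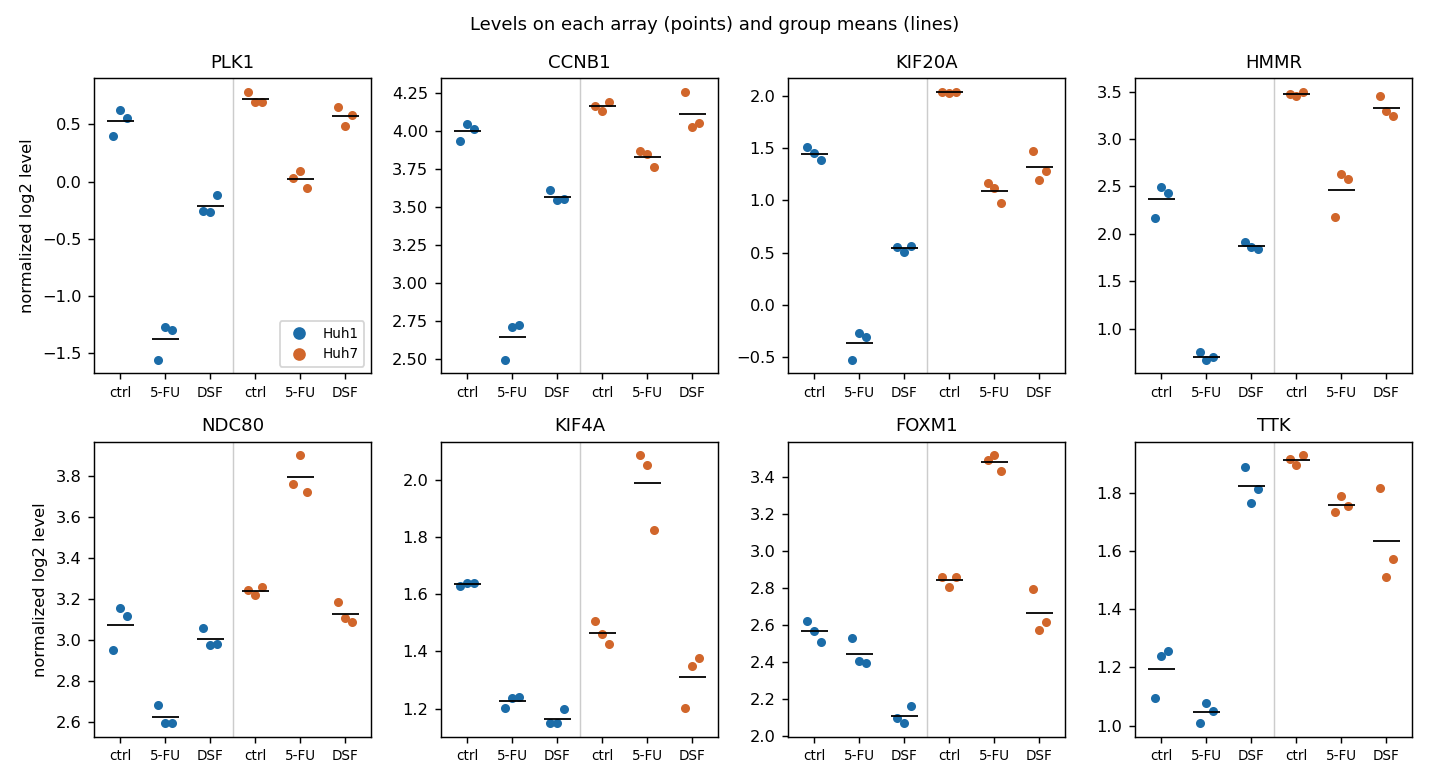
Normalized log2 level (y axis) of 8 genes on each of the 18 arrays (points) with group means (lines), for control, 5-FU and DSF in Huh1 (blue) and Huh7 (orange); each panel has its own y range. After 5-FU, PLK1, CCNB1, KIF20A and HMMR lie below their controls in both lines, while NDC80 and KIF4A lie below them in Huh1 and above them in Huh7.

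The Aurora and passenger group holds Aurora kinases, TPX2 and genes of the chromosomal passenger complex, which corrects faulty attachments. Of its 6 genes, 5 fell after 5-FU in Huh1, and in Huh7 4 fell and 1 rose. AURKA, the kinase of the spindle poles, had a change of -1.10 in Huh1 and -0.57 in Huh7, both called, and the difference was called (limma adjusted p = 0.00222, or 0.118 with close arrays averaged). BIRC5 (survivin), a subunit of the passenger complex, was at 5.00, 5.00 and 4.92 in Huh1 controls against 4.37, 4.39 and 4.38 after 5-FU. The levels in Huh7 were 5.64, 5.60 and 5.64 in controls against 5.08, 5.32 and 5.10. It fell in both lines, with changes of -0.59 ± 0.06 and -0.46 ± 0.06, and the difference of 0.13 ± 0.09 was not called (limma adjusted p = 0.275). AURKB, the kinase of the complex, rose in Huh7. It was at 2.15, 1.98 and 2.03 in Huh7 controls and 2.39, 2.34 and 2.18 after 5-FU, and at 1.98, 2.24 and 2.18 in Huh1 controls and 2.09, 1.97 and 1.98 after 5-FU. Its rise of 0.25 ± 0.08 in Huh7 was called (limma adjusted p = 0.012), the change of -0.12 in Huh1 was not (limma adjusted p = 0.227), and the difference between the lines was (limma adjusted p = 0.0159). After averaging of close arrays neither the rise (limma adjusted p = 0.201) nor the difference (0.323) was called.

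Of the checkpoint and APC/C genes, 7 of 8 fell in Huh1 and 5 of 8 in Huh7, and 0 rose. PTTG1 (securin), the inhibitor of separase, was at 5.44, 5.21 and 5.20 in Huh1 controls against 3.85, 4.09 and 4.08 after 5-FU. Huh7 cells had it at 6.92, 6.88 and 6.89 in controls against 6.19, 6.42 and 6.25. The groups did not overlap in either line, and the fall was 1.27 in Huh1 and 0.61 in Huh7 on the log2 scale (difference 0.66 ± 0.12, limma adjusted p = 0.000515, or 0.0506 with close arrays averaged). The kinase BUB1 fell by 0.97 in Huh1 and by 0.70 in Huh7, without a called difference (limma adjusted p = 0.0816). CDC20, whose promoter is printed above, fell by 0.89 in Huh1 and had a change of -0.19 in Huh7 that was not called (limma adjusted p = 0.118), with a difference of 0.70 that was called, though not with close arrays averaged (limma adjusted p = 0.0857). For BUB3, a WD-repeat partner of BUB1, the 2 probes disagreed: the brighter gave -0.43 and -0.44, both called, and the other 0.05 and -0.07, neither called. TTK, the kinase that starts the checkpoint, had a change of -0.15 in both lines that was called in neither.

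All 6 kinetochore and centromere genes fell after 5-FU in Huh1. In Huh7 5 fell and NDC80 rose. NDC80, the subunit of the outer kinetochore that binds microtubules, was at 2.95, 3.16 and 3.11 in Huh1 controls against 2.68, 2.59 and 2.59 after 5-FU. In Huh7 it was at 3.24, 3.22 and 3.26 in controls against 3.76, 3.90 and 3.72. It fell by 0.45 in Huh1 and rose by 0.55 ± 0.07 (limma adjusted p = 5.4e-06) in Huh7, a difference of 1.01 ± 0.09 (limma adjusted p = 2.59e-06).

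NUF2 and SPC25, which belong to the same NDC80 complex, fell in both lines instead. NUF2 was at 1.90, 1.86 and 1.86 in Huh7 controls against 1.05, 1.20 and 1.16 after 5-FU, and at 1.32, 1.28 and 1.29 in Huh1 controls against 0.66, 0.67 and 0.62. Its changes of -0.74 ± 0.07 and -0.65 ± 0.07 did not differ by the test (difference -0.09 ± 0.09, limma adjusted p = 0.487), and SPC25 gave -0.70 and -0.79. CENPE, a kinesin of the kinetochore, was at 0.83, 1.03 and 1.08 in Huh1 controls against -0.32, -0.22 and -0.21 after 5-FU, and at 1.80, 1.82 and 1.84 in Huh7 controls against 1.31, 1.501 and 1.48. It fell by 1.23 in Huh1 and by 0.39 in Huh7 on the log2 scale, and the difference of 0.84 was called (limma adjusted p = 0.000171). Its fall in Huh7 was not called with close arrays averaged (limma adjusted p = 0.104). CENPF, a kinetochore protein that accumulates in G2, was at 4.35, 4.42 and 4.53 in Huh1 controls against 3.68, 3.74 and 3.70, and at 3.78, 3.87 and 3.81 in Huh7 controls against 3.55, 3.33 and 3.57. The changes were -0.72 ± 0.07 and -0.34 ± 0.07, and the difference of 0.38 was called (limma adjusted p = 0.00855). After averaging of close arrays neither the fall in Huh7 (limma adjusted p = 0.0874) nor the difference (0.23) was.

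Of the spindle genes and kinesins, 6 of 7 fell in Huh1, and in Huh7 2 fell and 1 rose. HMMR, a spindle assembly factor, was at 2.17, 2.50 and 2.43 in Huh1 controls against 0.75, 0.67 and 0.70 after 5-FU. In Huh7 it was at 3.47, 3.45 and 3.50 in controls against 2.18, 2.63 and 2.58. It had the largest fall of the 41 genes in Huh7, -1.01 ± 0.11 (limma adjusted p = 2.17e-06), and fell by 1.66 in Huh1, with a called difference of 0.65 (limma adjusted p = 0.00464, or 0.196 with close arrays averaged).

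KIF4A, a chromokinesin that shapes chromosomes and the central spindle, went in opposite directions. It was at 1.63, 1.64 and 1.64 in Huh1 controls against 1.20, 1.24 and 1.24 after 5-FU, and at 1.51, 1.46 and 1.43 in Huh7 controls against 2.09, 2.05 and 1.83. The change was -0.41 ± 0.07 in Huh1 and 0.52 ± 0.07 in Huh7, and its second probe gave -0.37 and 0.56. DLGAP5, a protein that stabilizes kinetochore fibers, was at 2.50, 2.47 and 2.36 in Huh1 controls against 1.43, 1.73 and 1.72, and at 2.89, 2.86 and 2.90 in Huh7 controls against 2.93, 2.92 and 2.77. It fell by 0.81 in Huh1 and had a change of -0.01 in Huh7 (limma adjusted p = 0.932), where the groups overlapped. NUSAP1, which binds spindle microtubules, was at 2.82, 2.74 and 2.75 in Huh1 controls against 2.27, 2.11 and 2.10, and at 3.25, 3.16 and 3.22 in Huh7 controls against 3.14, 3.32 and 3.20. It fell by 0.61 in Huh1, and its change in Huh7 was 0.01. KIF2C, a kinesin that takes microtubules apart, was at 3.58, 3.83 and 3.79 in Huh1 controls against 3.68, 3.78 and 3.80, and at 4.30, 4.27 and 4.27 in Huh7 controls against 4.50, 4.48 and 4.37. Its changes of 0.02 and 0.17 were not called.

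Of the genes of cytokinesis, 4 of 5 fell in Huh1, and in Huh7 2 fell and 1 rose. KIF20A, a kinesin of the central spindle, was at 1.51, 1.45 and 1.39 in Huh1 controls against -0.53, -0.27 and -0.31 after 5-FU. In Huh7 it was at 2.04, 2.03 and 2.04 in controls against 1.16, 1.12 and 0.97. It fell by 1.82 in Huh1 (3.52-fold) and by 0.95 in Huh7 on the log2 scale, and the difference of 0.87 was called (limma adjusted p = 6.04e-05).

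KIF23, the kinesin of the centralspindlin complex, rose in Huh7. It was at 4.03, 4.02 and 4.01 in Huh7 controls against 4.32, 4.30 and 4.14 after 5-FU, and at 3.12, 3.23 and 3.23 in Huh1 controls against 2.56, 2.66 and 2.65. The changes were 0.24 ± 0.07 and -0.57 ± 0.07, and both of its probes gave these signs, but the rise was not called with close arrays averaged (limma adjusted p = 0.196). PRC1, which bundles the microtubules of the central spindle, was at 3.98, 4.14 and 4.10 in Huh1 controls against 3.45, 3.35 and 3.37, and at 4.50, 4.46 and 4.51 in Huh7 controls against 4.25, 4.28 and 4.16. It fell by 0.69 in Huh1 and by 0.26 in Huh7, the latter not called with close arrays averaged (limma adjusted p = 0.116). ECT2, the exchange factor that activates RhoA for cytokinesis, had the highest changes of the 41 genes in Huh1, 0.30 ± 0.14, which was not called (limma adjusted p = 0.0925), and 0.23 in Huh7 (limma adjusted p = 0.173).

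**Figure D3:**
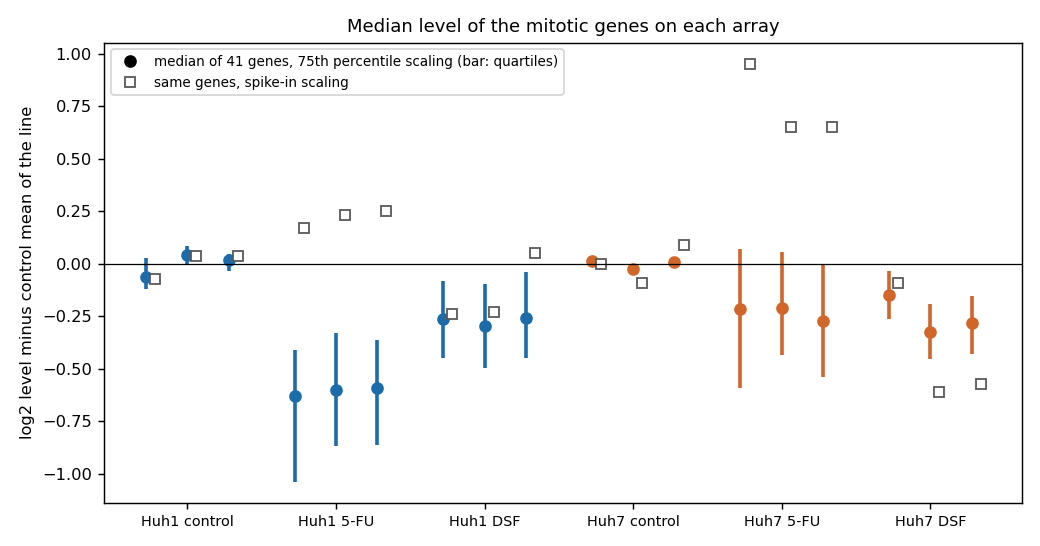
Median over the 41 genes of the log2 level minus the control mean of the line (y axis), for each array; filled points use the 75th percentile scaling with bars for the quartiles over genes, and open squares use the spike-in scaling. On the first scaling the Huh1 5-FU arrays lie at -0.63, -0.60 and -0.59 and the Huh7 5-FU arrays at -0.22, -0.21 and -0.27, and on the second the 5-FU arrays of both lines lie above 0.

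After DSF many of the genes were called lower in both lines. The median change was smaller in size than after 5-FU in Huh1, but not in Huh7 (-0.25 after DSF, -0.19 after 5-FU). In Huh1, 24 of 41 genes were called lower (58.5%, against 20.3% of all tested probes) and 3 higher (7.32%, against 23.9%). In Huh7, 25 were called lower (61.0%, against 19.4%) and 0 higher (against 27.3%), also at limma's unadjusted p under 0.05. The median change was -0.26 in Huh1, with all DSF arrays below all controls for 28 genes (68.3%, against 29.1%), and -0.25 in Huh7, with all DSF arrays below for 31 genes (75.6%, against 26.8%). The medians over all tested probes were 0.0023 and 0.08. Scaled to the spike-in probes, 5 genes were called lower and 4 higher in Huh1, with a median of -0.12 against 0.14 over all tested probes, and 22 lower and 0 higher in Huh7, with a median of -0.43 against -0.09. On that scale 2419 of the 29894 tested probes were called lower and 7081 higher in Huh1, and 6123 lower and 3241 higher in Huh7. The spike-in medians over the genes differed by slide. In Huh7 they were -0.09 on DSF array 1, on the slide of the controls, and -0.61 and -0.57 on arrays 2 and 3, on another slide. In Huh1 they were -0.24 and -0.23 on DSF arrays 1 and 2, on the slide of the controls, and 0.05 on array 3, on another slide. The 5-FU and DSF changes of a line share its control arrays.

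Of the 41 genes, 13 fell in both, 11 were called lower in Huh1 alone and 10 in Huh7 alone. The same patterns were not counted over all tested probes. The difference of the DSF changes, Huh7 minus Huh1, was called higher for 8 genes (19.5%, against 21.1% of all tested probes) and lower for 11 (26.8%, against 19.2%), the first share being near that of all probes, with a median of 0.0022 against 0.05. On the spike-in scale it was called higher for 0 genes and lower for 11, against 1431 and 6938 of the 29894 tested probes. The medians of the DSF arrays on that scale differed by slide in both lines, and the part of the slide was not tested. Of the Huh7 DSF arrays, 2 had a slide to themselves, with its own scan day, and array 1 lay on the slide of the Huh7 controls. The median over the genes was -0.15 on array 1 and -0.32 and -0.28 on the other two. With the slide as a block, 10 genes were called lower in Huh7, and with array 1 alone against the controls of its slide, 7 were, with 33 of 41 changes below 0 and a median of -0.15 in both settings. Both of these fits rest on array 1 as the only Huh7 DSF sample that shares a slide with its controls, and they take the spread from the other groups. With close arrays averaged, 14 genes were called lower in Huh1 and 5 in Huh7, and the difference between the lines was called for TTK only.

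KIF20A fell after DSF in both lines. It was at 0.56, 0.51 and 0.57 in Huh1, below the controls given above, and at 1.47, 1.19 and 1.28 in Huh7. Its changes of -0.91 ± 0.08 (limma adjusted p = 1.01e-06), the largest in Huh1, and -0.72 ± 0.08 (limma adjusted p = 9.32e-06) did not differ by the test (difference 0.19 ± 0.12, limma adjusted p = 0.217). PLK1 was at -0.26, -0.27 and -0.12 in Huh1 and fell by 0.74 on the log2 scale (limma adjusted p = 9.1e-06). In Huh7 PLK1 was at 0.65, 0.49 and 0.58, with a change of -0.15 that was not called (limma adjusted p = 0.167), and the difference of 0.59 was called (limma adjusted p = 0.00158). CCNB1 gave the same order, at 3.61, 3.54 and 3.55 in Huh1 with a fall of 0.43 and at 4.25, 4.02 and 4.05 in Huh7 with a change of -0.05 (limma adjusted p = 0.598). PTTG1 fell by 0.48 and 0.50 and TOP2A, the topoisomerase that untangles sister chromatids, by 0.60 and 0.42.

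In Huh7 the largest fall after DSF was that of NUSAP1, at 2.48, 2.11 and 2.19. It was at 2.43, 2.43 and 2.46 in Huh1. The changes were -0.95 ± 0.09 in Huh7 (limma adjusted p = 9.49e-07) and -0.33 ± 0.09 in Huh1, and they differed by the test (limma adjusted p = 0.00107). CDC25C was at 0.56, 0.49 and 0.52 in Huh7 controls against -0.26, -0.32 and -0.19 after DSF. In Huh1 it was at -0.38, -0.19 and -0.25 in controls against -0.47, -0.44 and -0.41. It fell by 0.78 in Huh7 (limma adjusted p = 2.33e-06) and had a change of -0.16 in Huh1 that was not called (limma adjusted p = 0.102), with a called difference of -0.62. AURKB was at 1.49, 1.44 and 1.41 in Huh7 and 1.87, 1.83 and 1.86 in Huh1, and fell by 0.60 in Huh7 and by 0.28 in Huh1. Array 1 lay below all Huh7 controls for NUSAP1, CDC25C, AURKB and KIF20A, the falls of which were also called with close arrays averaged.

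The genes that rose after DSF did so in Huh1. TTK was at 1.09, 1.24 and 1.26 in Huh1 controls against 1.89, 1.76 and 1.82, and at 1.92, 1.90 and 1.93 in Huh7 controls against 1.82, 1.51 and 1.57. All DSF arrays lay above the controls in Huh1 and below them in Huh7, with changes of 0.63 ± 0.07 (limma adjusted p = 1.04e-05) and -0.28 ± 0.07 (limma adjusted p = 0.00659), and the difference of -0.91 was the largest in size. ECT2 was at 0.89, 1.33 and 1.27 in Huh1 controls against 1.83, 1.82 and 1.85, and at 0.57, 0.57 and 0.63 in Huh7 controls against 0.64, 0.35 and 0.43. It rose by 0.67 ± 0.14 in Huh1 (limma adjusted p = 0.0013), and its change of -0.12 in Huh7 was not called. KIF2C rose by 0.30 in Huh1, where it was at 4.04, 4.01 and 4.04, and fell by 0.36 in Huh7, where it was at 4.07, 3.83 and 3.85. The rise of KIF2C was not called with close arrays averaged (limma adjusted p = 0.0841), while those of TTK and ECT2 were. The 6 Aurora and passenger genes were all called lower in Huh7 (against 19.4% of all tested probes) and 3 of them in Huh1 (against 20.3%). In Huh7 only AURKB of the 6 was called with close arrays averaged, and AURKB and BIRC5 with the slide as a block, which rests on array 1. CENPF was called lower in Huh1 (-0.45) and had a change of 0.15 in Huh7 that was not called (limma adjusted p = 0.109), while its second probe was called higher there (0.31, limma adjusted p = 0.00153). The second probes of KIF4A and KIF23 were called lower in Huh7, at -0.43 and -0.24, where the brighter ones, at -0.15 and -0.04, were not.

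**Figure D4:**
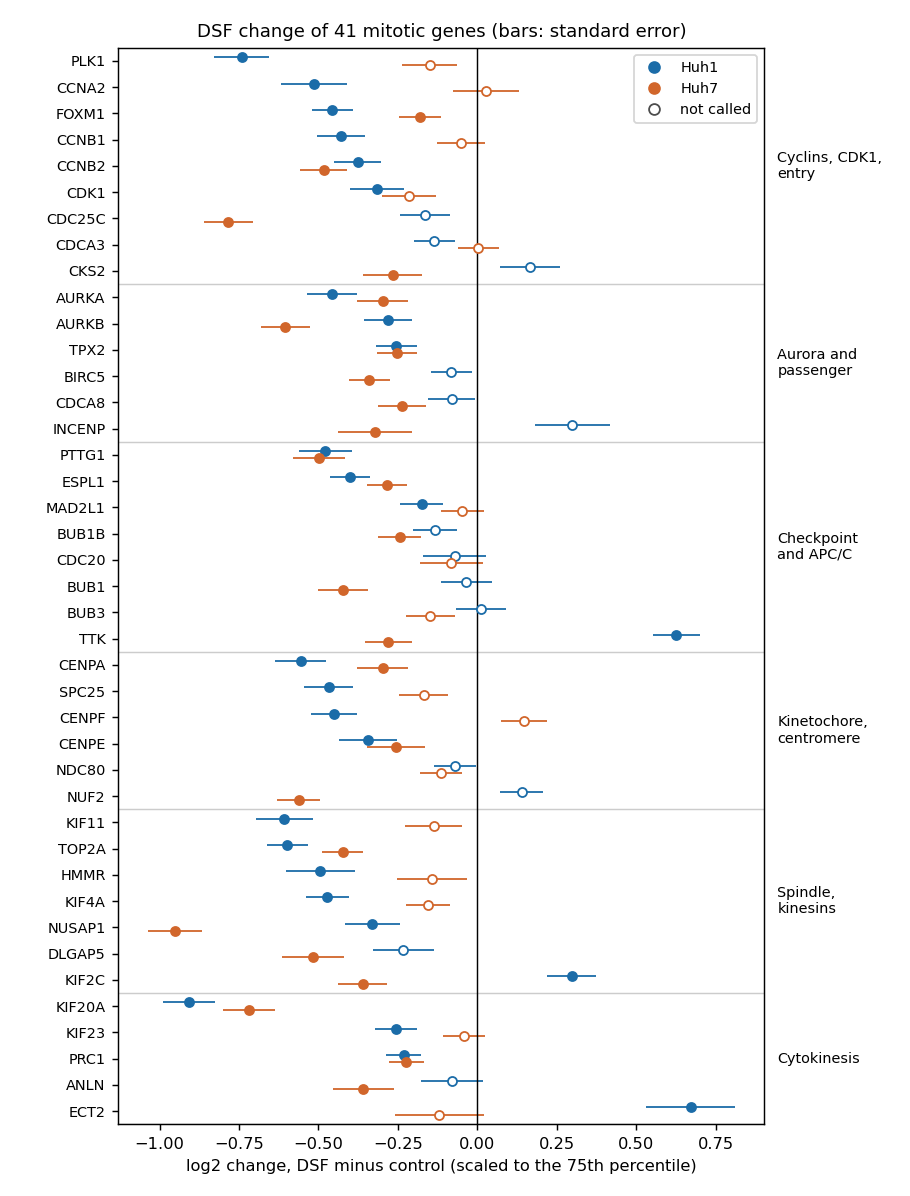
Change in normalized log2 level after DSF (x axis, DSF minus control) for the 41 measured genes, grouped by role, in Huh1 (blue) and Huh7 (orange); bars are standard errors from limma with 3 arrays per group, and open points were not called. TTK, KIF2C and ECT2 are the genes called higher in Huh1, and 0 genes are called higher in Huh7.

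Between the untreated lines, 27 of 41 genes were called higher in Huh7 (65.9%, against 34.5% of all tested probes) and 5 lower (12.2%, against 36.2%), with a median difference of 0.38 against -0.05. PTTG1 had the largest difference, 1.62 ± 0.08 (limma adjusted p = 1.9e-10), followed by HMMR with 1.11. CENPF was 0.61 lower in Huh7, and ECT2, BUB1B, KIF11 and KIF4A were also called lower. The Huh1 controls lay on one slide and the Huh7 controls on another. The fit with the slide as a block, which rests on Huh1 DSF array 3 to link these slides, called 20 higher and 2 lower. With close arrays averaged the counts were 19 and 1, the latter being CENPF.

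The other lists of cell division genes, drawn up from general knowledge, gave other counts within each line. The line difference in the 5-FU change was not particular to the mitotic genes (63.4% higher, against 18.8% of all probes). It was called higher for 62.9% of the replication list, 61.1% of the transcription list and 53.6% of other kinetochore genes. For the G2 checkpoint the share was 42.9%, for condensin and cohesin 36.8%, for other mitotic kinases 30.8% and for APC/C 23.5%. Lower calls made up 0.0% to 28.6% of these lists, against 17.8%. Calls within a line are read against 22.2% of all tested probes higher and 26.0% lower after 5-FU in Huh1. In Huh7 these were 27.3% and 29.7%. Of 35 genes of DNA replication and G1/S, 13 rose and 9 fell after 5-FU in Huh1, while 28 rose and 2 fell in Huh7, with medians of 0.02 and 0.54. The share of the list was 37.1% higher and 25.7% lower in Huh1, the latter near that of all probes, and 80.0% and 5.71% in Huh7, and the difference between the lines was called higher for 22 and lower for 0. CCNE2, the cyclin of S phase entry, rose by 0.99 and 2.23, and CDC6, a loader of the replicative helicase, by 0.86 and 2.08. Of 18 transcription factors and regulators of the cell cycle, 4 rose and 3 fell in Huh1, and 12 rose and 1 fell in Huh7 (22.2% and 16.7%, then 66.7% and 5.56%), so that the share higher in Huh1 equaled that of all probes. MYBL2 (B-MYB) rose in both lines, Huh1 giving 0.28 (limma adjusted p = 0.0349) and Huh7 giving 0.98 (limma adjusted p = 1.35e-06), and E2F8 rose by 1.45 in Huh7. Of 28 other kinetochore genes, 11 rose and 9 fell in Huh1 and 15 rose and 11 fell in Huh7 (39.3% and 32.1%, then 53.6% and 39.3%). MAD1L1, a checkpoint protein, had called changes of -1.10 in Huh1 and -0.48 in Huh7. SKA3, of the outer kinetochore, rose by 0.69 in Huh1 and by 1.25 in Huh7.

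Of 19 condensin and cohesin genes, 4 rose and 8 fell in Huh1 and 8 rose and 5 fell in Huh7 (21.1% and 42.1%, then 42.1% and 26.3%), with PDS5B, a cohesin regulator, at -0.93 and -2.05. Of 17 APC/C subunits and activators, 3 rose and 7 fell in Huh1 and 6 rose and 7 fell in Huh7 (17.6% and 41.2%, then 35.3% and 41.2%). Among these FZR1 (CDH1), the activator of APC/C in G1, rose by 0.23 in Huh1 and by 1.40 in Huh7. Of 13 other mitotic kinases and CDC25 phosphatases, 4 rose and 2 fell in Huh1 and 8 rose and 2 fell in Huh7 (30.8% and 15.4%, then 61.5% and 15.4%), where CDC25A rose by 1.22.

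Of 14 genes of the G2 checkpoint, 8 rose and 3 fell in Huh1 (57.1% and 21.4%, against 22.2% and 26.0% of all tested probes). In Huh7, 7 rose and 4 fell. The share higher there lay above the 27.3% of all tested probes, and the share lower, 28.6%, was near their 29.7%. The list also holds PPM1D (WIP1), a phosphatase that switches the checkpoint off, which rose by 0.22 and 0.72, and GTSE1, which acts in recovery from it and fell by 0.81 in Huh1. CDKN1A (p21), the inhibitor of cyclin-dependent kinases, rose after 5-FU in both lines, in Huh1 by 1.03 ± 0.11 (limma adjusted p = 3.69e-06) and in Huh7 by 1.27 ± 0.11 (limma adjusted p = 1.94e-07), and these changes did not differ by the test (difference 0.24 ± 0.15, limma adjusted p = 0.241). After DSF it rose by 0.51 in Huh1 and fell by 0.77 in Huh7, a called difference of -1.28 (limma adjusted p = 2.09e-05). GADD45A, a stress gene of the G2 checkpoint, rose by 1.52 in Huh1 and 1.02 in Huh7 after 5-FU, and by 1.90 and 0.93 after DSF. WEE1, the kinase that inhibits CDK1, fell by 0.73 after DSF in Huh1 and was called in no other drug comparison. After DSF 1 gene of the replication list rose and 15 fell in Huh1, and 10 rose and 5 fell in Huh7 (2.86% and 42.9%, against 23.9% and 20.3% of all tested probes, then 28.6% and 14.3%, against 27.3% and 19.4%).

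**Figure D5:**
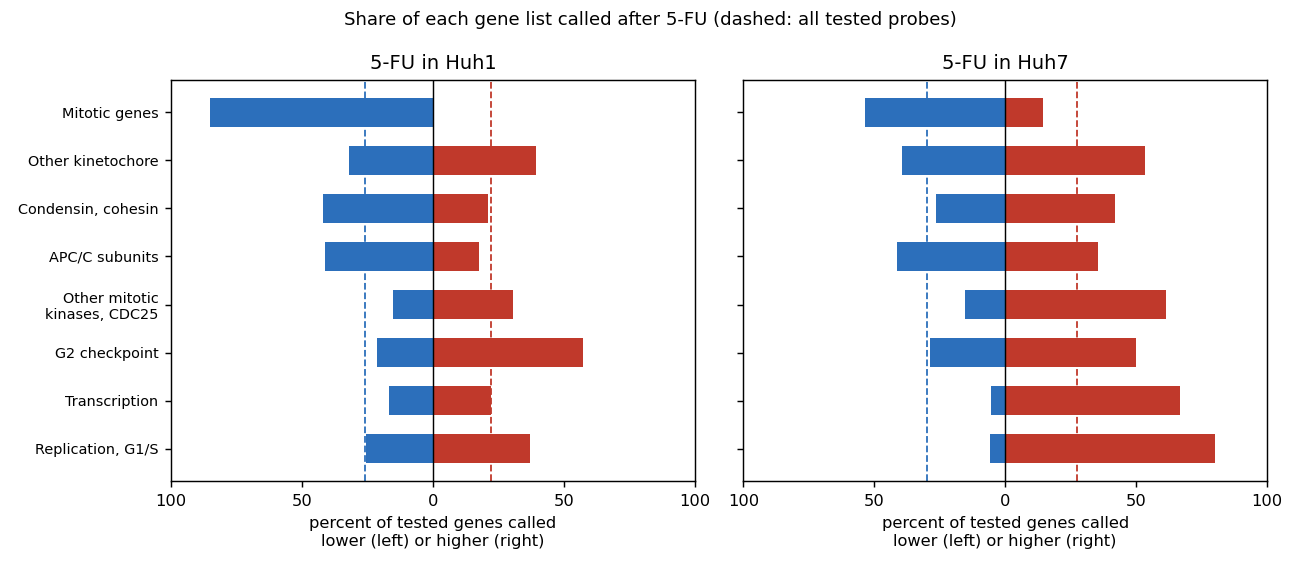
Percent of the tested genes of each list called lower (left, blue) or higher (right, red) after 5-FU in Huh1 and in Huh7, with the shares of all tested probes as dashed lines. In Huh7 the replication and G1/S list has 28 of 35 genes higher while the 41 mitotic genes have 6 higher and 22 lower.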

How the data were processed

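The authors deposited Agilent Feature Extraction output per array (version 10.7.1.1 per the submitters' processing notes), with background-subtracted spot intensity on a linear scale, and a GeneSpring table of normalized intensity, scaled per array to the 75th percentile. Here the log2 intensities of a probe's unflagged spots were averaged, and the log2 75th percentile of the array was then taken off. Of 42405 probes, 78 without an unflagged spot on some array were left out, and 29894 were tested, those for which every array of some group was well above background. Probes were named through RefSeq accessions (25740 probes, 19722 genes), by a table of another build than the array design, so no coordinates of probes are given.

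All 18 arrays entered a limma (3.58.1, R 4.3.3) fit of 6 groups without covariates, two-sided, with Benjamini-Hochberg adjustment over all tested probes. The fit was run on simulated data with independent noise on each array, which cannot show how it behaves where arrays lie close together. With 3 arrays per group the number of arrays limits precision, as the standard errors show. Alternatives were scaling, background, probe filter, probe choice, spread model, blocks, thresholds, each array left out, and averaging of close arrays. The normexp background used median spot signals, since the files used here hold no mean signal. Values per array are given for the 12 genes with the largest called difference of the 5-FU change between lines, per line and drug the 4 with the largest called change, and the brightest gene of each role. CCNB1 after DSF and the genes named by change alone were added after their values were seen. The members and lists were chosen with earlier results of these data known. Tables were read with Python 3.11.15 and pandas 2.3.3.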

Additional observations from a re-analysis of the deposited data

Results flagged for a closer look

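Genes whose change after a drug differed between Huh1 and Huh7 by the test of the difference itself (limma, adjusted p under 0.05 over all tested probes) are listed here with that difference, Huh7 minus Huh1, on the log2 scale. For 5-FU these were 26 genes, all with a positive difference. In mitotic entry they were PLK1 with 1.20, CCNB1 with 1.02, CCNB2 with 0.87, FOXM1 with 0.76, CDCA3 with 0.71, CCNA2 with 0.71 and CDK1 with 0.52. Among the Aurora and passenger genes they were AURKA with 0.53, CDCA8 with 0.40, AURKB with 0.37 and TPX2 with 0.29. Among checkpoint and APC/C genes they were CDC20 with 0.70, PTTG1 with 0.66 and MAD2L1 with 0.30, and at the kinetochore NDC80 with 1.01, CENPE with 0.84 and CENPF with 0.38. Of the spindle genes they were KIF4A with 0.94, DLGAP5 with 0.80, HMMR with 0.65, NUSAP1 with 0.62, KIF11 with 0.50 and TOP2A with 0.48. Of the cytokinesis genes they were KIF20A with 0.87, KIF23 with 0.81 and PRC1 with 0.43.

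For DSF the difference was called for 19 genes. It was positive for CENPF with 0.60, PLK1 with 0.59, CCNA2 with 0.54, KIF11 with 0.47, CCNB1 with 0.38, KIF4A with 0.32, SPC25 with 0.30 and FOXM1 with 0.28. It was negative for BIRC5 with -0.26, AURKB with -0.32, BUB1 with -0.39, CKS2 with -0.43, CDC25C with -0.62, INCENP with -0.62, NUSAP1 with -0.62, KIF2C with -0.66, NUF2 with -0.70, ECT2 with -0.79 and TTK with -0.91. Of the Huh7 DSF arrays 2 lay on a slide of their own. With the slide as a block, which leaves 1 Huh7 DSF array to set the change, 13 of the 19 kept their call and CKS2, AURKB, BIRC5, BUB1, KIF4A and ECT2 did not. With close arrays averaged, 11 of the 26 differences for 5-FU and 1 of the 19 for DSF, that of TTK, kept their call.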

How the results depend on the processing

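Of 28 gene changes named by the rule, 23 kept their direction and call under every alternative run, and 963 of 968 comparisons with alternatives did. The rule took the largest called changes of these same data, so these counts do not speak for the other genes. CCNA2's difference between the lines lost its call with close arrays averaged (0.64), and HMMR's 5-FU change in Huh7 with spike-in scaling (-0.02). CKS2 (0.27), KIF20A (0.036) and NUF2 (0.25) turned above 0 in Huh7 on the spike-ins, as did the median 5-FU changes (0.23 in Huh1, 0.79 in Huh7). The cause was not tested.

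Counts are out of 41. With spike-in scaling they moved after 5-FU from 0 higher and 35 lower to 16 and 7 in Huh1, and from 6 and 22 to 34 and 0 in Huh7. After DSF they moved from 24 lower to 5 in Huh1, and the DSF difference from 8 higher to 0 and the lines' difference from 5 lower to 1. On the spike-in scale the medians of the DSF arrays differed between slides. Over 1.5-fold, a stricter threshold, 22 genes were lower after 5-FU in Huh1, 1 higher and 8 lower in Huh7, and 16 higher for the difference. DSF gave 4 lower in each line, 2 higher and 7 lower for the difference, and the lines gave 13 higher and 1 lower. At an adjusted p under 0.01 the DSF difference gave 4 and 7 and the lines 3 lower. With close arrays averaged, which leaves 12 samples, 5-FU gave 3 higher and 12 lower in Huh7 and 11 for the difference. DSF then gave 14 lower in Huh1, 5 in Huh7, 0 and 1 for the difference, and the lines 1 lower. Quantile scaling gave 5 higher after DSF in Huh1, 5 higher for the DSF difference and 2 lower between lines, and median scaling 6 lower for the DSF difference and 8 lower between lines. The mean of a gene's probes gave 5 higher after DSF in Huh1 and 1 in Huh7, as did any probe (1). The slide as a block gave 10 lower after DSF in Huh7, 6 lower for the DSF difference and 2 lower between lines, and the arrays of slide 2 alone 7 lower after DSF in Huh7.

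The median DSF difference, 0.0022, turned to -0.12 with quantile and -0.31 with spike-in scaling, and with single arrays left out to -0.02 (Huh1 control 2), -0.0024 (Huh1 DSF 1), -0.02 (Huh1 DSF 2), -0.0047 (Huh7 control 2) and -0.047 (Huh7 DSF 1), over a range from -0.047 to 0.044. Median scaling put the median of all probes at -0.17 (from 0.0023) for DSF in Huh1, at 0.21 (from 0.05) for the DSF difference and at -0.21 (from -0.05) between lines. With each array left out, 5-FU gave 0 to 1 higher and 35 to 36 lower in Huh1, 5 to 8 and 20 to 23 in Huh7, and 25 to 27 and 0 for the difference. The 1 came without Huh1 5-FU array 1. DSF gave 3 to 5 and 23 to 25 in Huh1 (5 without Huh7 DSF array 1), 0 and 20 to 28 in Huh7, and 6 to 9 and 9 to 14 for the difference. The lines gave 23 to 29 higher and 3 to 6 lower (3 without Huh1 control 2, Huh7 control 2 or Huh7 control 3). Same-numbered arrays did not deviate together (correlations -0.093 to 0.024), so the replicate number does not pair them. With the replicate number as a block 35 genes were lower after 5-FU in Huh1 and 21 in Huh7, 26 higher for the difference, and 24 lower after DSF in each line.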
